A study of Mus musculus with 14 samples.

Results

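The genes described here are 36 markers of microglia and of other macrophages of the brain, taken by symbol out of 55421 mouse genes counted in 14 RNA sequencing libraries. The list was drawn up by cell identity, at a time when earlier results of these data were known, and it holds 10 homeostatic microglia genes, 17 genes that microglia share with macrophages at large, 6 genes of activated microglia and 3 genes of border macrophages, which sit at the meninges and vessels. Every one of the 36 passed the filter on low counts in every comparison, so all of them are accounted for. Fcrls appears in the deposited gene table under another symbol and was matched by its Ensembl identifier.

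The libraries came from the brainstem of 7 mice aged 2 to 3 months, on a C57Bl/6 background, each carrying Th-cre and the Slc6a2-eGFP/Rpl10a transgene. Slc6a2 encodes the noradrenaline transporter, so the tagged ribosomal protein marks noradrenergic cells, and Cre is driven by the promoter of tyrosine hydroxylase. Into the locus coeruleus (LC), the main noradrenergic nucleus of the brain, 4 of them (animals B, C, L, M) had received P364S mutant human tau and 3 of them (animals H, I, K) the fluorescent protein EYFP as control. From each animal a total homogenate (pre-IP) and an immunoprecipitate of tagged ribosomes (IP) were sequenced, which gave 4 libraries each of tau IP and tau pre-IP and 3 each of EYFP IP and EYFP pre-IP. Both treatments share the transgenes and the surgery, and no animal without infusion was analysed here.

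Microglia are the resident macrophages of the brain. They survive on signals through the receptor CSF1R, survey the tissue with purinergic and chemokine receptors, prune synapses with the help of complement C1q, and clear debris through TREM2 and its partner TYROBP. When they meet damaged or aggregate-laden tissue they are known to lower homeostatic genes such as P2ry12 and Tmem119 and to raise genes such as Cst7, Clec7a, Itgax, Lpl, Spp1 and Axl. None of these genes is a marker of noradrenergic neurons, whose ribosomes the IP targets, so their reads in an IP library are compared here with the homogenate of the same animal.

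The list holds a pair of transcription factors, PU.1 (encoded by Spi1) and IRF8, that are known to bind many promoters and enhancers of macrophage genes, PU.1 at a purine-rich core. Promoter windows from RefSeq (GRCm38.p6, 250 bases before to 50 after each start) were found for 28 of the 36 genes in 34 entries. The letters GAGGAA, read on both strands, were present in 18 of these 34 entries (52.9%) and in 28.3% of all 32851 promoter windows. For scale, TATAAA, read the same way, was present in 20.6% and 13.6%. Neither motif contains the other. A match of letters is a description of the sequence and does not show that a factor binds there. Shown are 120 bases before the start of 5 of these genes, P2ry13, which was called lower in the IP, and C1qb, Trem2, Cd53 and Clec7a, which were not called. This does not show that these genes differ from P2ry13: the mean log2 ratio of IP over pre-IP was -0.53 for P2ry13 and -0.44 for Cd53. Capitals mark GAGGAA or its reverse complement TTCCTC.
P2ry13, chr3:59210883-59211002, minus strand: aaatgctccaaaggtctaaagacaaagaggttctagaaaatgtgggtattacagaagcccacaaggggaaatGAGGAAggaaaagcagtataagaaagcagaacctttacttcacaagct
C1qb, chr4:136886201-136886320, minus strand: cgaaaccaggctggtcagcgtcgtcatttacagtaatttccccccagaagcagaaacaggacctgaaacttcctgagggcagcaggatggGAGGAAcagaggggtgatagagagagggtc
Trem2, chr17:48346281-48346400, plus strand: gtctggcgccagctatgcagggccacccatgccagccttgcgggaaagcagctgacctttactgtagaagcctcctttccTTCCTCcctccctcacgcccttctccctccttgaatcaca
Cd53, chr3:106790150-106790269, minus strand: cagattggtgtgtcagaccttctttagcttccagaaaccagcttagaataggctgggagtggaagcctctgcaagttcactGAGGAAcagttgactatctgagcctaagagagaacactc
Clec7a, chr6:129472780-129472899, minus strand: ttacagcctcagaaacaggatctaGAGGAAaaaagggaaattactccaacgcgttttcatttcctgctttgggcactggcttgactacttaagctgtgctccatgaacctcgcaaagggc

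Total counts ran from 41843489 to 65664551 per library, and 3 counts, the floor used for detection, corresponded to 0.0457 to 0.0717 CPM, the unit of counts scaled to a common library total. RNA integrity numbers were 4.2 for the IP of animal I and 7.7 to 9 for all other libraries. Both EYFP libraries of animal K held reads of the human tau construct (408 in pre-IP and 398 in IP, against 2 to 18 in animals H and I), and animal M, labelled female, had 674 and 1153 counts of 4 Y-linked genes. The noradrenergic list (Dbh, Th, Slc6a2, Slc18a2, Phox2a and Gal) exceeded its pre-IP level in the IP of every animal, with median log2 ratios of 2.66 to 6.38 in tau and 0.95 to 1.26 in EYFP animals. Hemoglobin and Alas2 transcripts, markers of red blood cells, summed to between 491 and 1250 CPM, and the neutrophil list to at most 9.61 CPM.

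In the homogenate the list covered a wide span of levels. CPM values are scaled by TMM (trimmed mean of M-values), while levels are compared between genes only per kilobase of exon. Spp1, which encodes the secreted protein osteopontin, was at 97.4 CPM per kilobase ± 31.1 (SD, n = 7 pre-IP libraries). The complement subunit C1qb was next at 68.7 ± 13.6, then the signalling adaptor Tyrobp at 53.8 ± 12.3, the lysosomal protease Ctss at 41.1 ± 9.10 and C1qa at 40.1 ± 6.91. Neighbours in this order overlapped within their SD. The homeostatic receptor genes were lower, with Tmem119 at 13.9 ± 1.33, Cx3cr1 at 4.65 ± 0.524 and P2ry12 at 4.06 ± 1.05 CPM per kilobase. At the lower end were Ptprc, which encodes the leukocyte phosphatase CD45, at 0.0211 ± 0.0103, the integrin gene Itgax at 0.0537 ± 0.0510 and the mannose receptor gene Mrc1 at 0.0896 ± 0.0222. Only Ptprc and Itgax had libraries with 0 counts: Ptprc in the IP of animal B, and Itgax in the IP of B, L and I and in the pre-IP of K.

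Some members share exons with other genes, and whether counting used the strand is not given in the sources used here. Itgam shares 68.7% of its exon bases with Gm49368 on the same strand, Spp1 shares 18.8% with Gm42793 on the same strand, and Csf1r shares 15.1% with Hmgxb3 on the opposite strand. Lyz2 has a close copy, Lyz1. The levels of these 4 genes are therefore uncertain. The 3 C1q genes lie side by side on chromosome 4 (C1qb 136880129 to 136886187, C1qc 136889804 to 136893065 and C1qa 136895917 to 136898803, GRCm38), and P2ry13 (59207892 to 59210882) and P2ry12 (59216272 to 59262871) are neighbours on chromosome 3.

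How far the pull-down removed RNA of these genes was read from the IP against the pre-IP in all animals, with treatment in the model. Of the 36 genes, 9 were lower in IP at an adjusted p under 0.05 and 0 were higher (edgeR quasi-likelihood test, Benjamini-Hochberg adjustment over all 18792 genes tested), where 14.7% of all genes were lower and 16.3% higher. By unadjusted p under 0.05, 11 were lower and 0 higher, where 19.8% of all genes were lower and 21.8% higher. The median log2 fold change over the 36 was -0.21, against 0.00 over all genes tested, and it was -0.06 without animal B. The 9 were the homeostatic genes P2ry13, Tmem119, Cx3cr1, Olfml3 and Selplg, the shared genes Csf1r, Laptm5 and Irf8, and Axl. The IP and the pre-IP came from the same animals, so this comparison does not measure a gain or loss of microglia in the tissue.

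Among the homeostatic genes 5 of 10 were lower in IP and 0 higher, where 14.7% of all genes were lower and 16.3% higher. All 10 had a negative log2 fold change (median -0.41). Tmem119, a membrane protein that marks microglia apart from other macrophages, had 34.6, 27.7, 32.0 and 36.7 CPM in the pre-IP and 15.5, 14.3, 12.98 and 24.4 CPM in the IP of tau animals B, C, L and M. In EYFP animals H, I and K it had 29.7, 31.1 and 33.9 CPM in the pre-IP and 27.0, 26.1 and 26.8 CPM in the IP. The IP value was lower in every animal, and in all 7 it lay below every pre-IP value. The log2 fold change of Tmem119 was -0.65 (SE 0.16, edgeR adjusted p 0.00555).

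Selplg, which encodes the selectin ligand PSGL-1, had 37.6, 28.1, 31.4 and 35.2 CPM in the pre-IP and 13.99, 17.5, 14.99 and 23.9 CPM in the IP of the tau animals. In the EYFP animals it had 30.2, 31.5 and 35.1 CPM in the pre-IP and 25.8, 24.3 and 28.8 CPM in the IP. Selplg was lower in IP in all 7 animals, by 0.64 in log2 units (edgeR adjusted p 0.0033). Cx3cr1, the receptor for neuronal fractalkine, fell by 0.57 (SE 0.13, edgeR adjusted p 0.00478), with 10.1 to 15.6 CPM in tau IP and 14.5 to 18.8 CPM in EYFP IP against 18.6 to 25.6 CPM in pre-IP. P2ry13, an ADP receptor, fell by 0.51 (edgeR adjusted p 0.036) and Olfml3, a secreted matrix protein, by 0.47 (edgeR adjusted p 0.0352). These last 2 calls and that of Irf8 were lost when single animals were left out, with edgeR adjusted p-values from 0.0538 to 0.122: P2ry13 without B, H, L or M, and Olfml3 and Irf8 without B, C, K, L or M. Olfml3 also missed the threshold with voom (adjusted p 0.0506), and P2ry13 and Irf8 with no filter on counts (edgeR adjusted p 0.0604 and 0.0601).

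P2ry12, the ADP receptor that steers microglial processes, had the smallest change of the homeostatic genes, -0.10 (SE 0.20, edgeR adjusted p 0.729). In tau animals B, C, L and M it had 13.5, 12.2, 6.93 and 6.50 CPM in the pre-IP and 5.60, 7.86, 8.11 and 9.05 CPM in the IP. In EYFP animals H, I and K the values were 11.9, 10.9 and 10.6 CPM in the pre-IP and 8.88, 14.8 and 14.8 CPM in the IP. The direction thus differed among animals: 3 of 7 were lower in IP. The other homeostatic genes that did not pass were Siglech, Gpr34, Sall1 and Fcrls, with log2 fold changes from -0.34 (Fcrls) to -0.10 (Siglech).

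**Figure D1:**
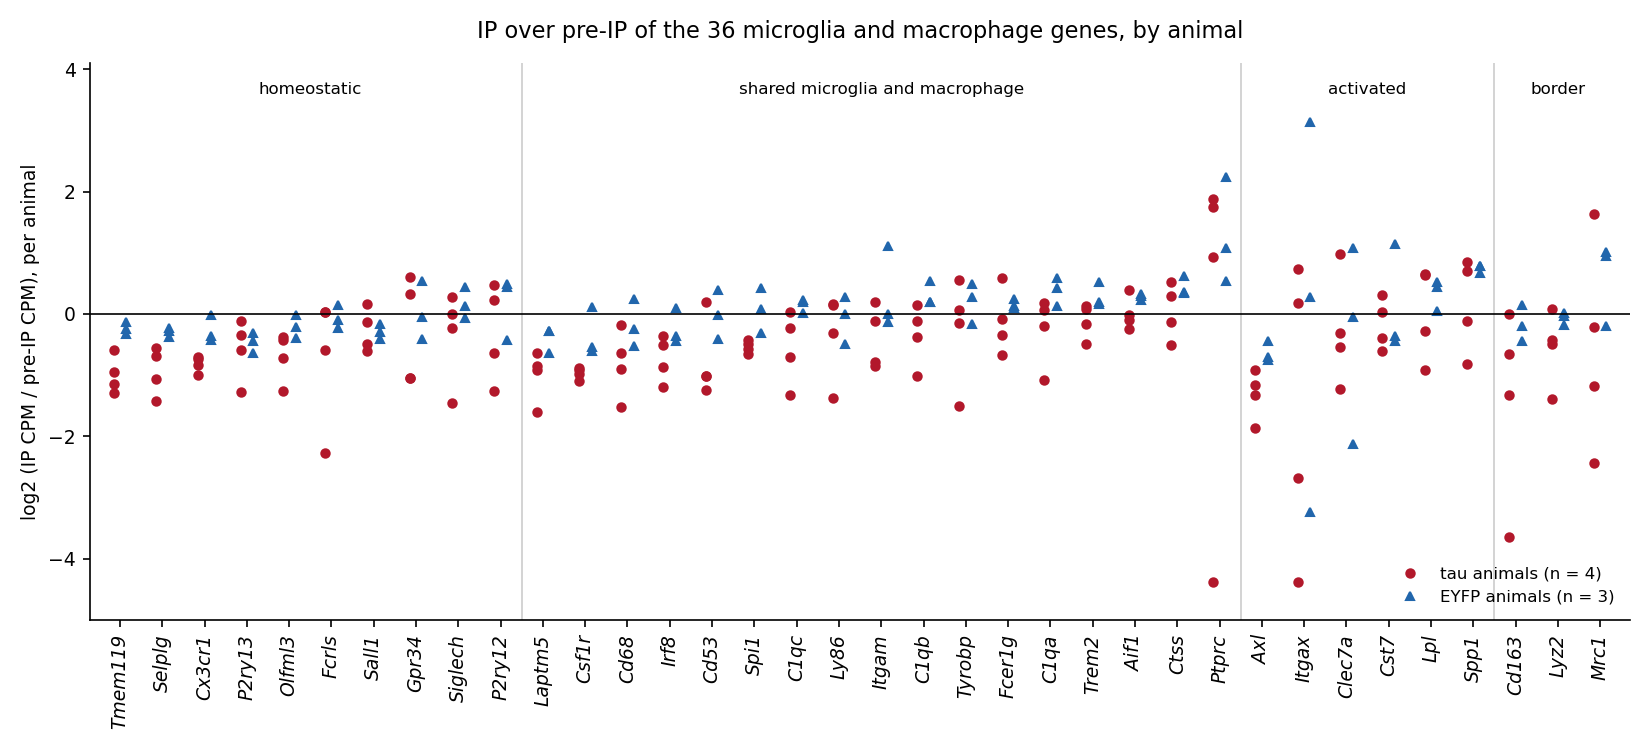
IP to pre-IP ratio of CPM (vertical axis, log2, prior count 2) for each of the 36 genes, grouped by list and ordered by the mean over animals, with 1 circle per tau animal (n = 4) and 1 triangle per EYFP animal (n = 3). Tmem119, Selplg, Cx3cr1, P2ry13, Olfml3, Laptm5 and Axl lie below 0 in all 7 animals, and the widest spread belongs to Ptprc, Itgax and Mrc1, which had few counts.

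Shared microglia and macrophage genes split by gene: 3 of 17 were lower, 0 were higher, and the median log2 fold change was -0.11. Of all genes 14.7% were lower and 16.3% higher, so the lower share was near the background. Laptm5, a lysosomal membrane protein of leukocytes, had 64.3, 49.3, 53.1 and 65.5 CPM in the pre-IP and 21.2, 26.2, 29.3 and 41.9 CPM in the IP of tau animals B, C, L and M. In EYFP animals H, I and K it had 52.0, 52.1 and 68.6 CPM in the pre-IP and 42.6, 42.8 and 44.1 CPM in the IP. The IP and pre-IP values of Laptm5 did not overlap, and its log2 fold change was -0.72 (SE 0.15, edgeR adjusted p 0.00198). Csf1r, the growth factor receptor on which microglia depend, had a change of -0.69 (SE 0.16, edgeR adjusted p 0.00395).

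The IP of Csf1r held 25.4, 21.5, 25.6 and 29.0 CPM in the tau animals, against 47.8, 42.6, 47.2 and 61.9 CPM in their pre-IP. In the EYFP animals Csf1r had 51.4, 28.9 and 42.5 CPM in the IP and 47.7, 42.2 and 64.4 CPM in the pre-IP. It was lower in IP in 6 of 7 animals, the exception being animal H. Irf8, the transcription factor named above, fell by 0.48 (edgeR adjusted p 0.0447), from 8.82 to 14.2 CPM in pre-IP and 5.47 to 11.4 CPM in IP.

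The complement, Fc receptor and TREM2 genes did not follow Tmem119 and Laptm5. Of C1qa, C1qb and C1qc, which encode the chains of C1q, none passed the threshold, with log2 fold changes of 0.04, -0.03 and -0.21. The signalling adaptors Tyrobp and Fcer1g had -0.02 and 0.01, the lipid receptor gene Trem2 0.07, the protease gene Ctss 0.21 and the actin-binding Aif1 (IBA1) 0.14. Their edgeR adjusted p-values ran from 0.318 to 0.96. C1qb had 99.6, 68.9, 65.6 and 86.4 CPM in the pre-IP and 49.0, 63.7, 50.8 and 95.8 CPM in the IP of tau animals B, C, L and M. In EYFP animals H, I and K C1qb had 61.1, 60.4 and 81.6 CPM in the pre-IP and 88.8, 69.2 and 93.6 CPM in the IP. It was higher in IP in the 3 EYFP animals and in animal M, and lower in B, C and L. Cd68, a lysosomal glycoprotein of phagocytes, had a change of -0.50 (edgeR adjusted p 0.0574), just above the threshold.

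Ptprc had the most positive value of the shared genes, 1.04 (SE 0.57, edgeR adjusted p 0.185), on few reads. In counts it had 36, 26, 18 and 16 in the pre-IP and 0, 44, 62 and 51 in the IP of tau animals B, C, L and M, and 16, 20 and 8 in the pre-IP and 36, 44 and 52 in the IP of EYFP animals H, I and K. Ptprc was higher in IP in 6 of 7 animals, and animal B had no read in it. Without animal B the log2 fold change was 1.46 with an edgeR adjusted p of 0.00328, so this call rests on whether B is included. The remaining shared genes (Itgam, Cd53, Ly86 and Spi1) had changes from -0.34 to -0.11 and did not pass.

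Genes of activated microglia had no common direction: 1 of 6 was lower, 0 were higher, and the median was -0.06. The lower share was near that of all genes, of which 14.7% were lower and 16.3% higher. Axl, a receptor tyrosine kinase that binds GAS6 on dying cells and is made by several other cell types too, had the largest change of all 36 genes among those called. It had 40.8, 33.4, 47.8 and 60.2 CPM in the pre-IP and 11.1, 14.9, 19.2 and 32.0 CPM in the IP of tau animals B, C, L and M. In EYFP animals H, I and K it had 47.0, 44.1 and 56.7 CPM in the pre-IP and 34.4, 27.0 and 33.5 CPM in the IP. Axl was lower in IP in every animal, by 0.97 in log2 units (SE 0.21, edgeR adjusted p 0.00229).

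Spp1 had the most positive value of the activated genes, 0.46 (SE 0.26, edgeR adjusted p 0.197). The tau animals B, C, L and M had 189, 162, 101 and 181 CPM of Spp1 in the pre-IP and 107, 151, 182 and 295 CPM in the IP, and the EYFP animals H, I and K had 113, 128 and 248 CPM in the pre-IP and 179, 222 and 428 CPM in the IP. It was higher in IP in L, M and the 3 EYFP animals and lower in B and C. Cst7, an inhibitor of lysosomal proteases, and Clec7a, the receptor dectin-1, had changes of -0.02 and -0.09, and the lipase gene Lpl 0.22. Itgax had at most 36 counts in any library, with a fitted change of -0.92 (SE 0.94), so no direction is given for it.

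Border macrophage genes were sparse apart from Lyz2, and 0 of 3 passed, where 31.0% of all genes passed in either direction. Cd163, a scavenger receptor for hemoglobin, had 1.07, 1.52, 0.963 and 1.27 CPM in the pre-IP and 0.668, 0.0878, 0.962 and 0.486 CPM in the IP of tau animals B, C, L and M. In EYFP animals H, I and K it had 1.51, 1.36 and 1.58 CPM in the pre-IP and 1.11, 1.19 and 1.75 CPM in the IP. Its log2 fold change was -0.68 (SE 0.37, edgeR adjusted p 0.176), with 6 of 7 animals lower in IP. Mrc1 (CD206) had 16, 34, 32 and 38 counts in the pre-IP and 6, 4, 90 and 28 in the IP of tau animals B, C, L and M. In EYFP animals H, I and K it had 25, 26 and 42 counts in the pre-IP and 79, 52 and 42 in the IP. The change of Mrc1 was 0.41 (SE 0.50), which turned to -0.18 without animal L. Lyz2, lysozyme M, had -0.29 (SE 0.20, edgeR adjusted p 0.288).

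**Figure D2:**
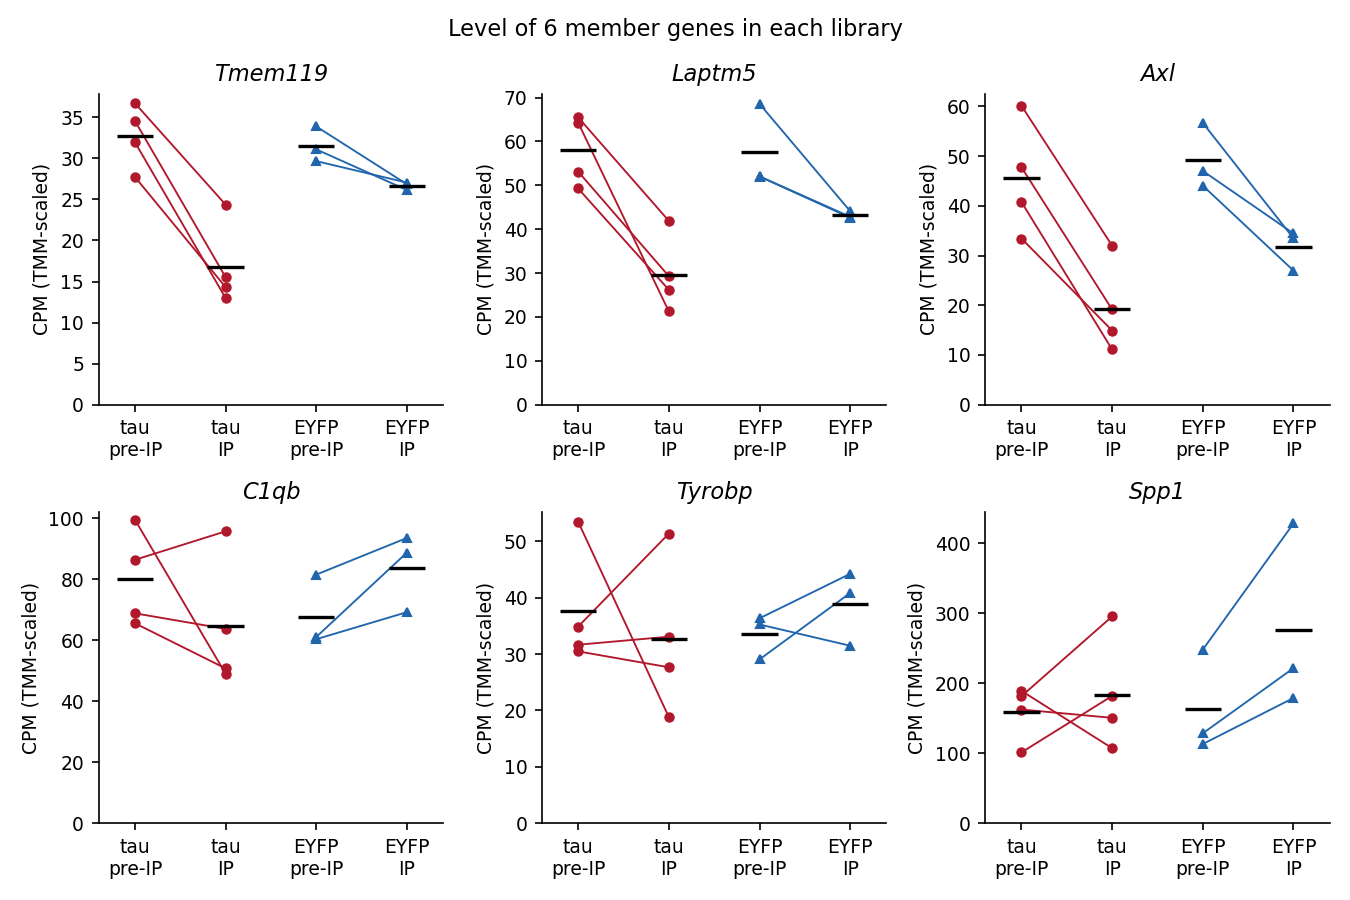
TMM-scaled CPM (vertical axes, from 0) of 6 genes in pre-IP and IP of tau animals (circles, n = 4) and EYFP animals (triangles, n = 3), with a line joining the 2 libraries of an animal and a black bar at the group mean. Tmem119, Laptm5 and Axl go down from pre-IP to IP in every animal, whereas C1qb, Tyrobp and Spp1 go up in some animals and down in others.

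Across genes the IP ratio fell with exon length up to 6000 bases and was higher again in longer genes. The median of the mean log2 IP over pre-IP was -0.05 for the 8 members with less than 1500 bases of exon, -0.28 for the 11 from 1500 to 3000, -0.62 for the 12 from 3000 to 6000 and -0.06 for the 5 longer ones. Over all genes tested the same bins gave 0.23, -0.04, -0.18 and -0.07. Spearman's rho across genes was -0.27 over the 36 members and -0.12 over 18661 genes, where genes share libraries and are not independent. Tyrobp, Fcer1g, C1qa, C1qb and Ctss, set apart from Tmem119 and Laptm5 above, had 667, 874, 1040, 1088 and 1358 bases of exon. Of the others set apart there, Aif1 had 1532, C1qc 1931 and Trem2 4946 bases. Tmem119 had 2315 and Laptm5 3788 bases. Cd68 was also short (1257 bases), with a mean log2 ratio of -0.54. The part of length in the results above was not tested.

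Each treatment was then taken alone. In the tau animals 8 of the 36 genes were lower in IP and 0 higher, where 10.3% of all 18949 genes were lower and 10.4% higher (edgeR, adjusted p under 0.05). The 8 were those called over all animals, except P2ry13. The median over the 36 was -0.41, against -0.03 over all genes, and 31 of 36 values were negative. Without animal B the median was -0.25. Without animal C or animal L no gene at all was called (0.0% of 19091 and of 18929), so the 0 members called there are not particular to the list. The count was 7 without B (6 lower and 1 higher), where 20.2% of all genes were called, and 10 without M, where 13.7% were.

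In the EYFP animals 0 of the 36 passed in either direction, where 2.41% of all 19105 genes were lower and 3.96% higher (edgeR). By unadjusted p under 0.05, 2 were lower and 4 higher, where 10.8% of all genes were lower and 11.8% higher, so the higher share was near the background. The median was 0.08, against 0.00 over all genes, and 16 of 36 values were negative. It was 0.06 without animal I, whose IP had the low RNA integrity number, and -0.08 without K, which had tau construct reads. In those fits 0 of the 36 were called, and 0.43% and 2.0% of all genes. Axl lay closest to the threshold, with a change of -0.63 (SE 0.17, edgeR adjusted p 0.0502). When the 2 libraries of each animal were paired by a block term, 2 genes were called, 1 lower and 1 higher, where 16.9% of all genes were.

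The ratio of the list was also taken in each animal, with no test of the list. The median over the 36 genes of log2 IP over pre-IP was -1.16, -0.40, -0.36 and 0.03 in tau animals B, C, L and M, and 0.05, -0.03 and 0.10 in EYFP animals H, I and K. Animal M lay among the EYFP animals. The mean was -0.47 ± 0.50 (SD, n = 4) in tau and 0.04 ± 0.07 (SD, n = 3) in EYFP animals, a difference of -0.51, which was -0.28 without animal B. The median over all 18792 genes tested in the same animals ran from -0.09 (B) to 0.00.

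Lists of other cell types were read in the same animals. The astrocyte list had medians of -1.31, -0.59, -0.37 and -0.51 in B, C, L and M and from -0.21 to -0.10 in EYFP animals, and the oligodendrocyte list had -1.08, -0.39, -0.40 and -0.09 and from -0.01 to 0.22. The vascular list had -0.20, -0.27, -0.67 and -0.07 in B, C, L and M and from -0.26 to -0.09 in EYFP animals, so that animal B lay among the EYFP animals there. The noradrenergic list had positive ratios, with 6.38, 4.47, 4.82 and 2.66 in B, C, L and M against 1.03, 1.26 and 0.95 in H, I and K. The RNA concentration of the IP was 0.1, 0.8, 0.2 and 0.5 ng per microlitre in B, C, L and M and 2.8, 1.6 and 0.7 in H, I and K. The part of these differences in the values of the microglia genes was not tested.

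**Figure D3:**
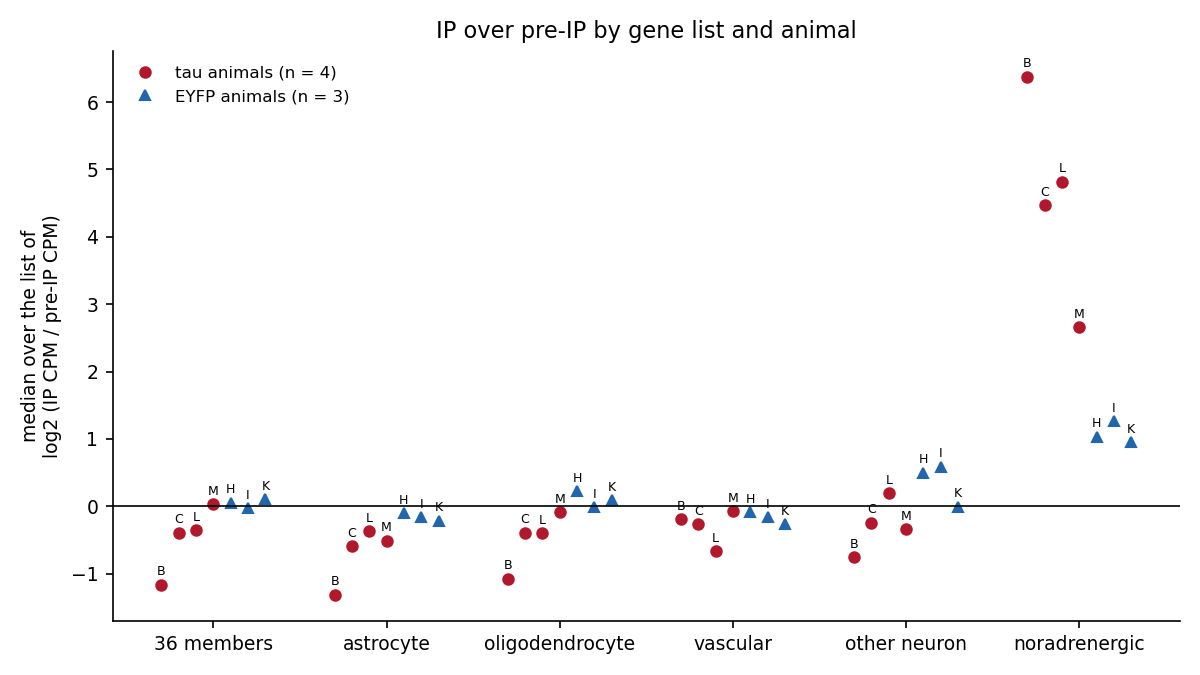
Median log2 IP to pre-IP ratio of each gene list (vertical axis) in each animal, named by its letter, for the 36 microglia and macrophage genes and 5 lists of other cell types (circles, 4 tau animals; triangles, 3 EYFP animals). Animal B is the lowest of the 7 for the 36 genes (-1.16), astrocytes (-1.31) and oligodendrocytes (-1.08) and the highest for noradrenergic genes (6.38).

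An interaction term between treatment and fraction tested whether the IP ratio of single genes differed between treatments. It was called for 0 of the 36 genes and for 0.0% of all 20495 genes (edgeR). By unadjusted p under 0.05, 5 of the 36 were lower in tau animals and 0 higher, where 1.94% of all genes were lower and 4.03% higher. This count was 0 without H, 1 without L and 16 without M, where 3.66%, 6.35% and 8.54% of all genes were at unadjusted p under 0.05 in either direction, against 5.97% with all animals. It was 11 with voom (8.71% of all genes). The median of the interaction over the 36 was -0.50, against -0.05 over all genes, and it was -0.30 without B. The smallest p-values belonged to Tmem119 (-0.72, SE 0.27, edgeR p 0.0169, adjusted p 0.761), Selplg (-0.61, SE 0.26, edgeR p 0.0286, adjusted p 0.819) and Spi1 (-0.62, SE 0.28, edgeR p 0.0385, adjusted p 0.82). The paired fit with a block per animal also called 0, with 9 at unadjusted p under 0.05 (8.51% of all genes).

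For 9 of the 36 genes the log2 ratio was lower in every tau animal than in every EYFP animal, against 5.62% of all genes. For 0 it was higher in every tau animal, and the share of all genes in that direction was not computed. They were Tmem119, Cx3cr1, Selplg, Csf1r, C1qb, Trem2, Laptm5, Spi1 and Axl. Tmem119 had ratios of -1.15, -0.95, -1.30 and -0.59 in B, C, L and M and of -0.13, -0.25 and -0.34 in H, I and K. Spi1, which encodes PU.1, had -0.42, -0.58, -0.66 and -0.49 in the tau animals and 0.43, -0.31 and 0.08 in the EYFP animals. The groups of Spi1 were close, with animal B just below animal I.

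Tau IP against EYFP IP is the comparison that the study's design names. It called 0 of the 36 genes and 0.0% of all 19472 genes (edgeR, smallest adjusted p over all genes 0.318). By unadjusted p under 0.05, 6 of the 36 were lower in tau and 0 higher, where 4.06% of all genes were lower and 7.93% higher. DESeq2 and limma voom also called 0 of the 36, with 7 and 13 at unadjusted p under 0.05, where 13.9% and 15.2% of all genes were in either direction. Over all genes DESeq2 called 342 (1.76%) and voom 0. The median log2 fold change was -0.40, against -0.08 over all genes, and 33 of 36 values were negative. It was -0.26 without B and -0.64 without M. The count of 6 became 2 without animal K, the EYFP animal with tau construct reads, and 17 without animal M, where 8.7% and 17.1% of all genes were at that p in either direction. It was 6 among the animals with library numbers up to 11 (B, C, H and I; 14.7% of all genes). Among those from 17 it was 3 (4.27% of all genes), where K is the only EYFP animal against L and M and its spread is assumed to be that of the tau animals.

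The smallest p-values were those of Csf1r, Tmem119 and P2ry12. Csf1r had 25.3 CPM ± 3.04 in tau IP (SD, n = 4) and 41.0 CPM ± 11.3 in EYFP IP (SD, n = 3), a change of -0.70 (SE 0.22, edgeR p 0.00894, adjusted p 0.318). The groups of Csf1r overlapped, with animal I at 28.9 CPM and animal M at 29.0 CPM. For Tmem119 the means were 16.8 ± 5.15 and 26.7 ± 0.475 CPM, with a change of -0.68 (SE 0.23, edgeR p 0.0167, adjusted p 0.326), without overlap. For P2ry12 they were 7.66 ± 1.47 and 12.8 ± 3.39 CPM, with a change of -0.75 (SE 0.26, edgeR p 0.018, adjusted p 0.336), with animal H (8.88 CPM) below animal M (9.05 CPM). The groups did not overlap for 6 of the 36, all lower in tau (Tmem119, Siglech, Selplg, Itgam, Laptm5 and Cd163). Of all genes 5.84% were lower in tau without overlap, and the share in the higher direction was not computed.

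By list, all 10 homeostatic genes, 16 of 17 shared genes, 4 of 6 activated genes and all 3 border genes had a negative log2 fold change in the IP, with medians of -0.51, -0.32, -0.44 and -0.59. The positive values were those of Cst7 (0.74, SE 0.66), Clec7a (0.45, SE 0.77) and Ptprc (0.08, SE 1.03), with standard errors about as large as the values or larger. Other lists were lower in the same comparison, with medians of -0.55 for astrocytes (10 of 10 negative), -0.44 for oligodendrocytes (9 of 10), -0.30 for vascular cells (9 of 10) and -0.48 for other neurons (7 of 7). The noradrenergic list had a median of 3.89 (6 of 6 positive). The part of these lists in the values of the microglia genes was not tested.

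The same contrast in the homogenate asks whether the tissue itself held more or less RNA of these genes after tau. It called 0 of the 36 genes and 0.0% of all 19197 genes (edgeR). By unadjusted p under 0.05, 0 of the 36 were lower and 0 higher, where 2.26% of all genes were lower and 0.578% higher. The DESeq2 Wald test gave 0 calls (0.0% of all genes) and 1 at unadjusted p under 0.05 (3.23% of all genes in either direction). For limma voom these counts were 0 (0.0% of all genes) and 0 (3.47%). The median log2 fold change was 0.08, against 0.00 over all genes. Its sign was not stable, with -0.04 without B, 0.26 among library numbers up to 11 and -0.08 among those from 17. In these subsets 7 and 3 of the 36 were at unadjusted p under 0.05, where 8.32% and 7.96% of all genes were, and the latter again has K as its only EYFP animal. Summed over the 36 genes, the homogenate held 763 to 1087 CPM in tau and 785 to 1069 CPM in EYFP animals, and these ranges overlap. In bulk homogenates, fewer cells of a type and less RNA per cell cannot be told apart. Spp1 alone gave 101 to 189 CPM in tau and 113 to 248 CPM in EYFP homogenates, and its cell of origin was not tested.

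The smallest p-values in the homogenate belonged to Cst7, Spi1 and Cd53. Cst7 had 1.96, 0.752, 0.372 and 1.34 CPM in tau animals B, C, L and M and 0.570, 0.356 and 0.677 CPM in EYFP animals H, I and K, a change of 1.03 (SE 0.50, edgeR p 0.0638, adjusted p 1.0), which was 0.60 without B. Tau animals B, C and M lay above all EYFP animals, and L lay within them. Spi1 had 7.23, 6.32, 8.10 and 7.22 CPM in the tau and 5.17, 5.97 and 6.30 CPM in the EYFP animals, a change of 0.31 (SE 0.17, edgeR p 0.104, adjusted p 1.0). The groups of Spi1 did not overlap, but animals C and K were nearly equal. The share of all genes without overlap in the homogenate was not computed. Cd53, a tetraspanin of leukocytes, had 10.9, 8.84, 6.83 and 8.91 CPM against 6.44, 6.29 and 8.42 CPM, a change of 0.32 (SE 0.19, edgeR p 0.125, adjusted p 1.0).

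Set side by side, the lists had different medians in the 2 fractions, which come from the same animals. In the homogenate the median was -0.06 for homeostatic, 0.17 for shared, 0.17 for activated and -0.21 for border genes, where it was -0.51, -0.32, -0.44 and -0.59 in the IP. Tmem119 had 0.05 in the homogenate (SE 0.14) and Laptm5 0.01 (SE 0.15). Of the activated genes, Clec7a had 0.34 (SE 0.43), Itgax 0.50 (SE 0.95), Spp1 -0.05 (SE 0.26), Lpl 0.00 (SE 0.23) and Axl -0.12 (SE 0.18) in the homogenate. Itgax and Clec7a, which had few counts, had wider standard errors than Spp1, Lpl and Axl.

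**Figure D4:**
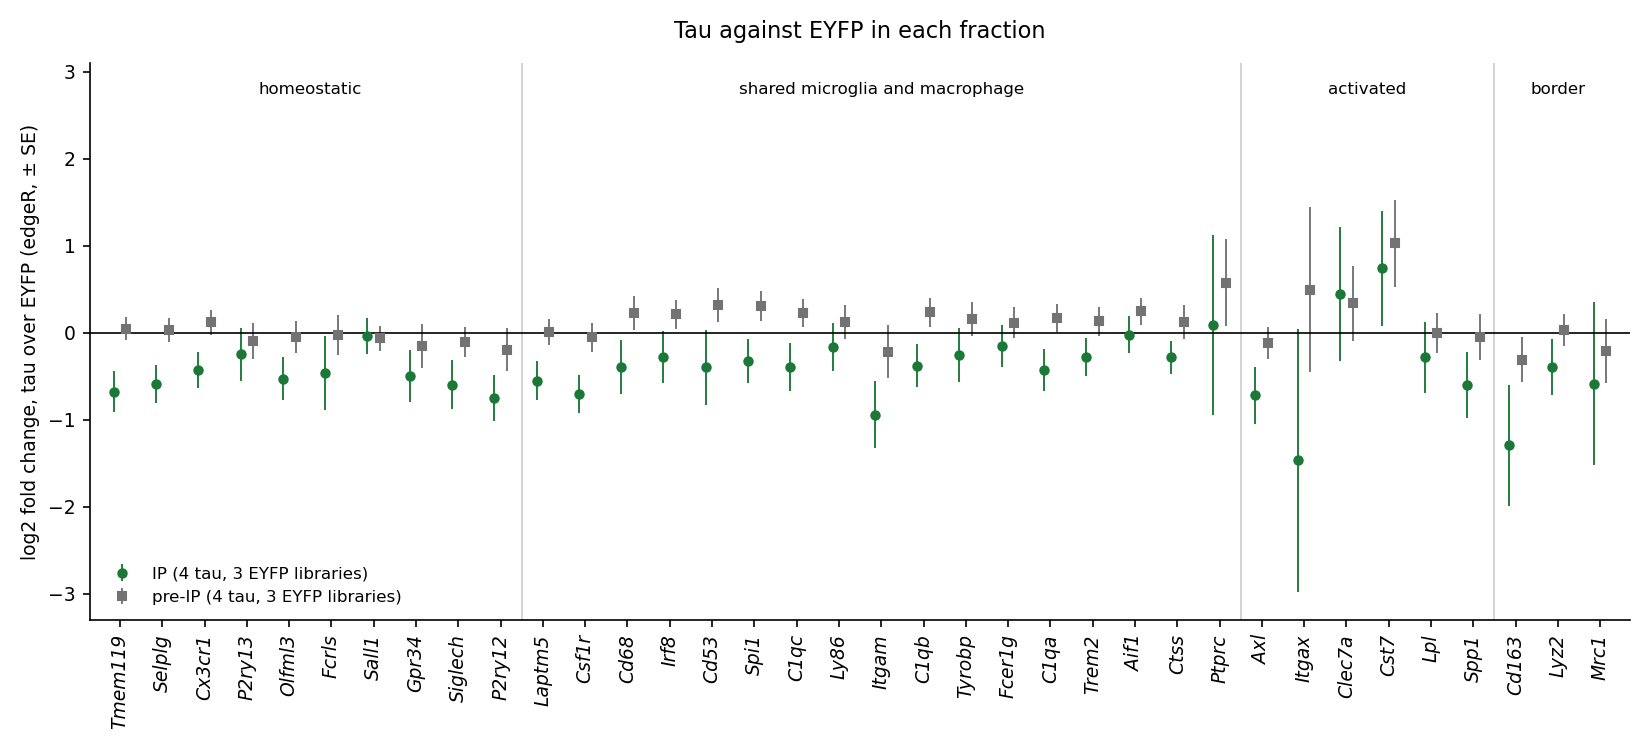
Log2 fold change of tau over EYFP (vertical axis, edgeR, bars show the SE) in IP (circles) and in pre-IP (squares) for the 36 genes, in the order of the plot of IP ratios by animal. In IP 33 of 36 values are negative and in pre-IP 14 of 36, and 0 of 36 passed the adjusted threshold in either.

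Signals that reach microglia were followed in a list of 11 genes. In IP against pre-IP 4 were lower and 1 higher (edgeR, adjusted p under 0.05), where 14.7% of all genes were lower and 16.3% higher. Csf1, a ligand of CSF1R, fell by 0.88 (SE 0.15, edgeR adjusted p 0.000532), from 26.2 to 53.8 CPM in pre-IP and 17.4 to 24.6 CPM in IP, lower in all 7 animals. Cx3cl1, the fractalkine that binds CX3CR1, fell by 0.53 (edgeR adjusted p 0.00287), and Gas6, the ligand of AXL, by 0.51 (edgeR adjusted p 0.0253). The second CSF1R ligand gene, Il34, fell by 0.33 (edgeR adjusted p 0.0194). Cd47, the "do not eat me" signal, rose by 0.57 (SE 0.13, edgeR adjusted p 0.00307), with 102 to 142 CPM in pre-IP and 150 to 241 CPM in IP, higher in every animal. In both treatment contrasts 0 of the 11 passed.

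Among 22 further genes of microglial and myeloid signalling, 5 were lower in IP and 2 higher, with a median of -0.40. The background for this list and the next 2 was 14.7% of all genes lower and 16.3% higher. The complement receptor gene C3ar1 fell by 0.80 (SE 0.25, edgeR adjusted p 0.0244) and the phosphatase gene Inpp5d (SHIP1) by 0.77 (SE 0.22, edgeR adjusted p 0.0136). The prostaglandin synthase gene Hpgds rose by 1.54 (SE 0.22, edgeR adjusted p 0.000161) and the TGF-beta receptor gene Tgfbr1 by 0.80 (SE 0.26, edgeR adjusted p 0.0286). Hpgds and Tgfbr1 are not confined to microglia in general, and their cell of origin was not tested. Of 17 further genes of activated microglia 14 were tested and 0 passed, with 13 of 14 values negative (median -0.35). Of 10 further border macrophage genes 9 were tested and 1 was lower, Stab1, a scavenger receptor, which fell by 1.17 (SE 0.34, edgeR adjusted p 0.0157) and had 0.334 to 1.67 CPM in tau IP and 3.33 to 4.70 CPM in EYFP IP. The 3 further lists had 0 genes past the threshold in tau against EYFP in either fraction.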

How the data were processed

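Reads of 14 libraries were counted per gene by the authors: the deposited table holds whole-number counts, not normalized, and the submitters' processing notes name FastQC, Trim Galore, STAR, featureCounts and the build GRCm38 (mm10). Tool versions, the strand setting and what was done with multi-mapping reads are not given in the sources used here. Of the counts from 1 to 20, 76.6% were even, as when both mates of a pair are counted, so 3 counts may stand for fewer fragments. The RNA integrity number is a quality score, and the GC percent is a value per library, both as deposited in the sample sheet, per the file headers. Gene spans of the members equalled GENCODE M21.

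Samples were grouped by treatment and fraction in the labels. The animal letter pairs the fractions: the 2 libraries of an animal deviated together from their group means (correlations of 0.15 to 0.41 over 7 animals). Each animal gave 1 library per fraction, so p-values of contrasts within a fraction measure the spread between animals. The main fits of IP against pre-IP and of the interaction had no term for the animal. They took the 2 libraries of an animal as independent, and only the fits with the animal as a block paired them. Floors of 3 counts cover counting error only.

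Tests used edgeR 4.0.16 in R 4.3.3 (quasi-likelihood, filterByExpr, TMM, Benjamini-Hochberg over all genes tested, threshold 0.05). IP against pre-IP had treatment as a further term, and each treatment was also fitted alone. Tau and EYFP were compared within each fraction, and an interaction term between these factors was fitted to all libraries. The standard error was the log2 fold change over the square root of F. Ratios per animal used a prior count of 2. Fits were tested on simulated data with known changes. Of 2-fold changes, 64.1% were recovered in IP against pre-IP, 47.4% in tau against EYFP pre-IP, 12.4% in the IP and 2.02% in the interaction. For tau animals alone it was 33% and for EYFP animals alone 35.7%. False calls were 3.92% of calls in IP against pre-IP and 10.1% in the interaction. The 0 calls in the treatment contrasts and the interaction therefore do not show that changes of this size were absent. No columns of other samples were present.

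The members and all gene lists were chosen with earlier results of these data known. The noradrenergic list was shortened by 1 gene, which is not reported here, after its values were seen. Values per library are given for the members with the lowest and highest IP change in each list, for the 3 with the smallest p in each treatment contrast and the interaction, and for C1qb, which, like the 5 promoter windows, was chosen after its values were seen. Of the further lists, all genes past the threshold in IP against pre-IP are named, except in the list of 22 genes. There only C3ar1 and Inpp5d are named of the 5 lower genes. Alternatives were DESeq2 size factors, library totals, the DESeq2 1.42.0 Wald test, limma 3.58.1 voom with quality weights, no filter, a mean of at least 50 counts, the animal as a block, the library-number range, each animal left out and, added after seeing the data, the RNA integrity number as covariate.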

Additional observations from a re-analysis of the deposited data

Results flagged for a closer look

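In 72 groups of 4 tau libraries (36 genes in 2 fractions), 4 held a library that stood apart from the other 3 by the gap to its neighbour over the whole range, where chance alone flags about 1 in 20 groups, so the number is close to that rate. Ctss and Cd68 were high in the IP of animal M, and Fcer1g and Lpl in the pre-IP of animal B. Ctss, the lysosomal protease gene, had 76.5 CPM in the IP of M against 51.5 to 55.5 CPM in the other tau IP libraries. Cd68, the lysosomal glycoprotein gene, had 10.1 CPM in the IP of M against 5.18 to 5.82 CPM. In the pre-IP of B, the Fc receptor adaptor gene Fcer1g had 29.9 CPM against 19.1 to 20.6 CPM, and the lipase gene Lpl had 3.11 CPM against 2.14 to 2.27 CPM.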

How the results depend on the processing

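IP against pre-IP called 6 to 10 of the 36 genes under all alternatives, including 9 with the animal as replicate block. These fits called 15.2% (no filter) to 39.1% (mean of at least 50 counts) of all genes, and 32.6% with the block. In tau animals alone leaving out an animal gave 0 to 10 calls (0 without C or L, where 0.0% of all genes were called). The block gave 9 in place of 8, with 23.2% of all genes called. In EYFP animals, where 0 were called, DESeq2 size factors, library totals, the DESeq2 Wald test and a mean of at least 50 counts gave 1 each. No filter or the replicate block gave 2 each. Over all genes these EYFP fits called 6.0% (library totals) to 16.9% (replicate block). The interaction had 0 calls under every alternative, the block included, as had tau against EYFP in both fractions. Subsets by library number aside, the interaction fits called at most 0.277% of all genes (without M). Tau against EYFP called at most 1.76% in the IP (DESeq2 Wald test) and 0.136% in the pre-IP (no filter). The 6 genes at unadjusted p under 0.05 in tau IP became 13 with voom, 3 among library numbers from 17, 7 with the RNA integrity number as covariate (chosen after seeing the data) and 2 (without K) to 17 (without M) with an animal left out. The 0 in pre-IP, where 2.84% of all genes were at that p, became 1 with the DESeq2 Wald test (3.23% of all genes). It became 1 with no filter (3.84%) and 7 among library numbers up to 11 (8.32%). With an animal left out it was 0 to 1 (without L, 4.56%). The difference of list medians between treatments, -0.51, ran from -0.68 to -0.28 with an animal left out. Mrc1 in IP against pre-IP ran from -0.18 (without L) to 0.67. The cause of these shifts was not tested. Few counts limit Itgax, Ptprc and Mrc1, whose standard errors in IP against pre-IP were 0.94, 0.57 and 0.50.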
